A study of Mus musculus with 24 samples.

Results

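Ccn1 and 8 further genes of the YAP-TEAD pathway were followed in the TA (tibialis anterior) muscle of 24 mice. The genes were Ccn1, Ccn2, Ankrd1, Amotl2, Yap1, Wwtr1, Tead1, Tead4 and Lats2, taken as a named list. All 9 were found by GENCODE symbol among the 55487 gene identifiers in the count tables. Ccn1 was selected on its difference in level between PBMT-treated and control sedentary muscle of these same mice, and the others were added because they belong to the pathway. The question was whether other targets of YAP followed Ccn1 across the 4 groups of mice.

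Poly(A) RNA was sequenced from wild-type C57BL/6J males aged 5 to 7 weeks, with 6 mice in each group. PBMT (photobiomodulation therapy) was LED light of 830 nm given for 20 min at 25 mW per square cm, a fluence of 30 J per square cm, and muscle was taken 24 h later. Sedentary control and sedentary PBMT mice did not run, whereas fatigued control and fatigued PBMT mice ran on a treadmill to exhaustion just before dissection. The paper reports longer runs to exhaustion in PBMT mice than in controls, with run times that varied between mice. Fatigued PBMT mice and fatigued controls can therefore differ in length of run as well as in light. The comparisons of fatigued with sedentary mice can likewise differ in amount of exercise. Run time entered no comparison here, and its part in the values below was not tested. Control mice were shaved and anesthetized for 20 min without light, and no group received sham light or heat. Fatigued and sedentary animals went through sequencing in different projects, so exercise state and sequencing project cannot be told apart in any value below. Sedentary controls had total counts between 43271093 and 46904076 (median 45278300) and from 46327516 to 52775844 in sedentary PBMT mice (median 49421800). Totals were between 56792327 and 68726155 in fatigued controls (median 61892200) and from 53122528 to 68566029 in fatigued PBMT mice (median 60228900).

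YAP (gene Yap1) and TAZ (gene Wwtr1) are coactivators that bind no DNA themselves and reach their target genes through TEAD transcription factors. Kinases of the Hippo pathway, LATS1 and LATS2, phosphorylate both coactivators and keep them out of the nucleus, while stretch and a stiff matrix favor their entry. In skeletal muscle the pathway is known for its response to mechanical load and for roles in satellite cells and interstitial cells, and Ccn1, Ccn2 and Ankrd1 are widely used as readouts of its activity.

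Levels are given as CPM, the usual unit of a gene's counts divided by the mouse's TMM-normalized total count, and each group is summarised by its lowest, median and highest mouse or as mean ± SD with n = 6. A log2 fold change of 1.00 is a doubling, and SE is its standard error from the edgeR fit. A gene is said to have passed when its p, adjusted by the Benjamini-Hochberg method over all genes tested, was under 0.05. Because the tissue was sequenced in bulk, fewer cells of a type and less RNA per cell cannot be told apart.

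Ccn1 encodes a secreted matricellular protein that binds integrins and is a direct target of YAP and TEAD. Its gene (ENSMUSG00000028195) lies on the minus strand of chromosome 3 in GRCm38, from 145646976 to 145649981. In sedentary controls the lowest, median and highest Ccn1 levels were 18.8, 20.03 and 23.9 CPM, and in sedentary PBMT mice they were 34.4, 44.9 and 56.6 CPM. In fatigued controls they were 18.7, 29.4 and 66.4 CPM, and in fatigued PBMT mice 24.5, 34.6 and 52.6 CPM. Each of the 6 sedentary PBMT mice lay above the highest sedentary control, whereas the fatigued groups overlapped almost completely. The counts behind these levels ran from 869 to 1088 in sedentary controls and from 1108 to 3917 in fatigued controls.

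The mean Ccn1 level was 20.6 ± 1.81 CPM in sedentary controls, 33.1 ± 17.1 in fatigued controls, 35.5 ± 9.90 in fatigued PBMT mice and 45.0 ± 8.99 in sedentary PBMT mice. In that order the ranges of neighbouring groups overlap, and the highest mean belongs to unexercised, light-treated muscle. The narrow range was that of sedentary controls, with an SD of 1.81 CPM, and the wide range that of fatigued controls. Mouse 6 of the fatigued controls, at 66.4 CPM, was the highest of the 24, and without it that group had a mean of 26.5 ± 5.86 CPM and a highest value of 32.2 CPM.

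PBMT in sedentary muscle gave a Ccn1 fold of 2.197 (log2 fold change 1.14, SE 0.115). This difference put Ccn1 on the list, so it is a description with no test. With one mouse left out at a time, the value ran from 1.06 to 1.20. In this comparison 1 of the 9 genes passed, Ccn1 itself, beside 0.0282% of the 14177 genes tested, and nothing is read from that count.

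**Figure D1:**
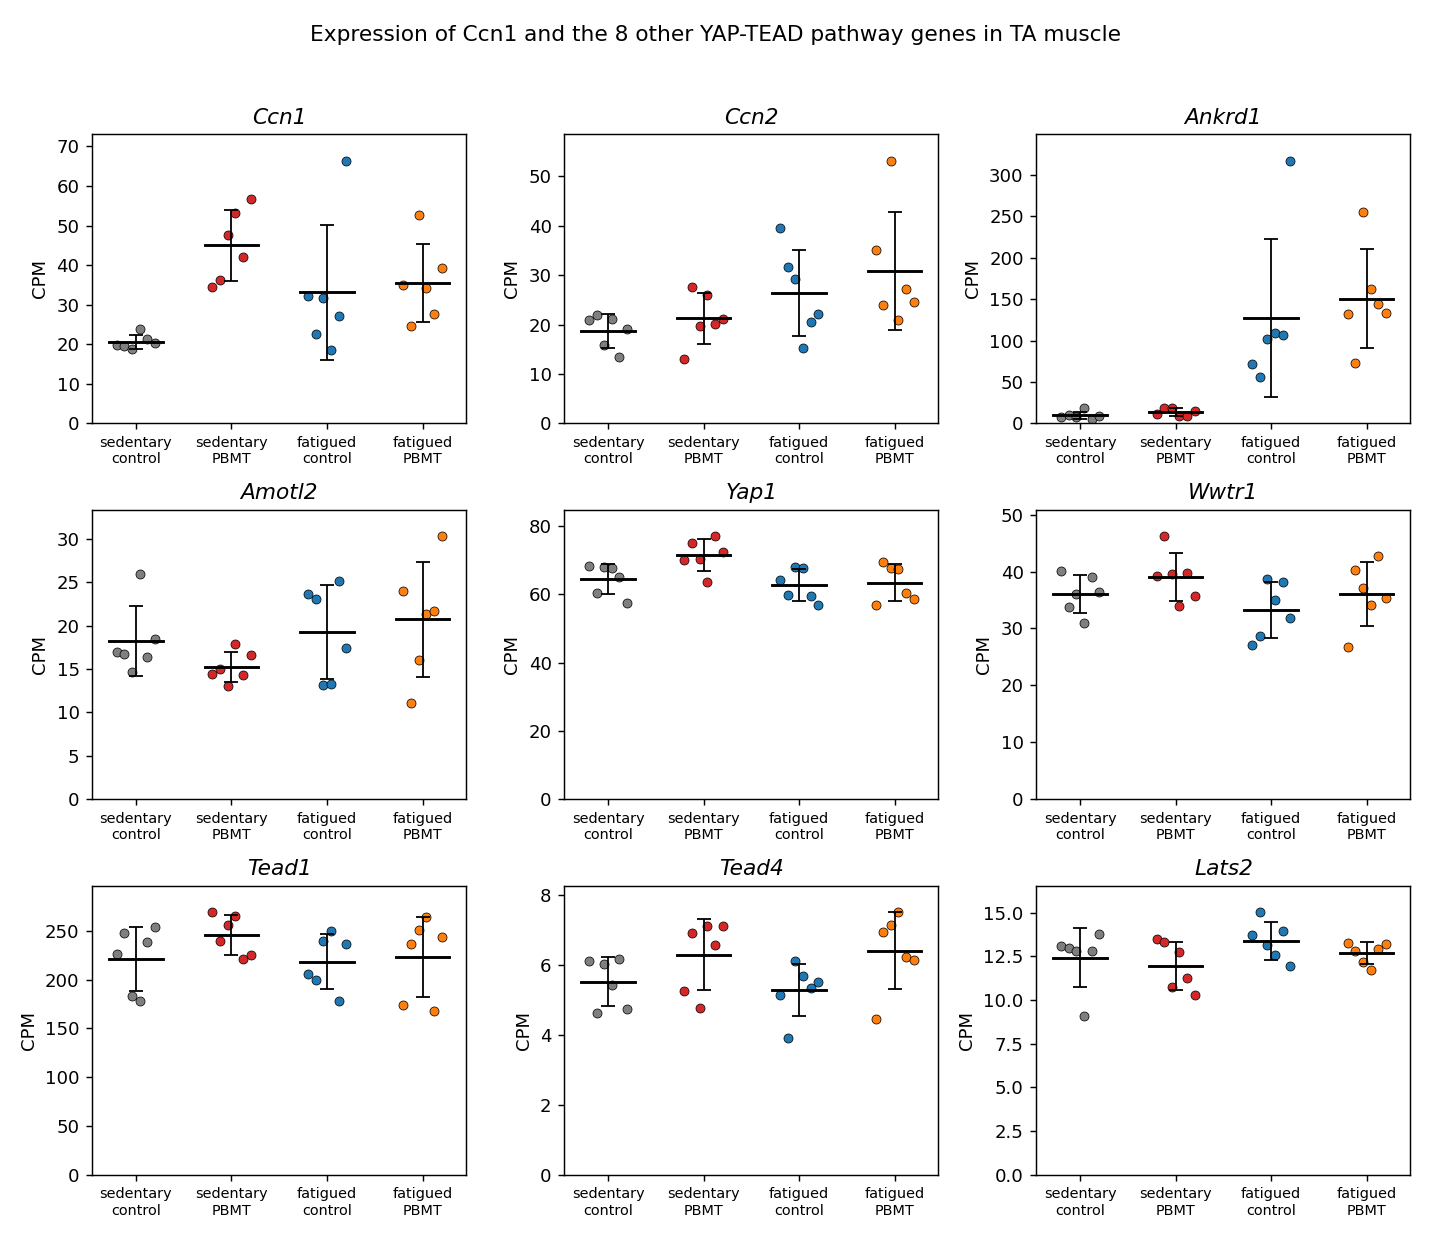
Level of each of the 9 genes in CPM (vertical axis, linear from 0, scaled per gene) in each of the 24 mice by group (horizontal axis), with bars for mean ± SD of 6 mice. Ccn1 separates sedentary PBMT mice from sedentary controls, Ankrd1 separates fatigued from sedentary mice, and the groups overlap for Yap1, Wwtr1, Tead1, Tead4 and Lats2.

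PBMT in fatigued muscle involved mice that did not enter the choice of Ccn1, so all 9 genes were tested there. Ccn1 had a log2 fold change of 0.10 (SE 0.289, 95% interval -0.54 to 0.75). Its difference in mean log2 CPM was 0.184, and a two-sided exact permutation test of that difference, 6 mice against 6, gave p = 0.558. The permutation ignored the replicate number, and with that number as a block the log2 fold change was 0.18. With no block, it moved to 0.42 without fatigued control mouse 6 and to -0.04 without fatigued PBMT mouse 3. With edgeR, 0 of the 9 genes passed, beside 0% of the 14574 genes tested, and 0 of the 9 had an unadjusted p under 0.05. Over all genes 230 had an unadjusted p under 0.05, and DESeq2 called 2 genes, neither of them among the 9. No test is given of whether the Ccn1 difference with PBMT itself differed between sedentary and fatigued mice, because the sedentary difference chose the gene and would enter that test.

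Fatigued and sedentary mice were compared without PBMT and with PBMT. The mice of these comparisons do not overlap with each other, but each shares a group with both PBMT comparisons, so values are placed side by side and no relation between comparisons is given. The Ccn1 log2 fold change was 0.69 (SE 0.231) without PBMT and -0.34 (SE 0.228) with PBMT, both given without a test because sedentary mice chose the gene. Without PBMT, 4 of 6 fatigued mice lay above the highest sedentary control, and with PBMT, 3 of 6 lay below the lowest sedentary PBMT mouse. The value without PBMT was 0.37 when fatigued control mouse 6 was left out.

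Ccn2 encodes another secreted matricellular protein of the CCN family and, like Ccn1, is a direct YAP target (ENSMUSG00000019997, chromosome 10, 24595442 to 24598683, plus strand). Its lowest, median and highest levels were 13.3, 20.03 and 21.9 CPM in sedentary controls and 13.1, 20.6 and 27.6 CPM in sedentary PBMT mice. They were 15.4, 25.7 and 39.6 CPM in fatigued controls and 21.0, 25.9 and 53.2 CPM in fatigued PBMT mice. Sedentary groups shared nearly the same median, and every group overlapped every other. A transcript annotated on the opposite strand, Gm15270, covers 23.2% of the exon bases of Ccn2, and the strand setting of the counting is not known from the sources used here.

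In sedentary muscle, where Ccn1 showed 1.14, the Ccn2 log2 fold change with PBMT was 0.19 (SE 0.158), given as a description. It was -0.0096 without the 2 sedentary PBMT mice with high skin markers, given further on, and between 0.10 and 0.30 with single mice left out. In fatigued muscle it was 0.22 (SE 0.265, 95% interval -0.37 to 0.81; exact permutation p = 0.468). Fatigued mice compared with sedentary mice had a Ccn2 log2 fold change of 0.50 (SE 0.232, edgeR adjusted p = 0.140) without PBMT, with 4 of 6 fatigued mice above the highest sedentary control. With PBMT it was 0.53 (SE 0.231, edgeR adjusted p = 0.0915), with 2 of 6 above the highest sedentary PBMT mouse, and it was 0.31 without fatigued PBMT mouse 3. Ccn2 therefore passed in neither comparison, and over the alternative settings its adjusted p ran from 0.0654 to 0.333 without PBMT and from 0.0538 to 0.294 with PBMT.

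Ankrd1 encodes an ankyrin repeat protein of the titin N2A region of muscle that also acts in the nucleus (ENSMUSG00000024803, chromosome 19, 36111961 to 36120099, minus strand). Its lowest, median and highest levels were 5.52, 8.82 and 18.6 CPM in sedentary controls and 8.32, 13.1 and 18.9 CPM in sedentary PBMT mice. After exhaustion they were 56.3, 104 and 317 CPM in controls and 73.4, 139 and 256 CPM in PBMT mice. The lowest fatigued mouse was well above the highest sedentary mouse, and within either exercise state the PBMT and control mice overlapped.

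With edgeR, Ankrd1 rose 12.96-fold without PBMT (log2 fold change 3.70, SE 0.421, adjusted p = 6.35e-06), with 6 of 6 fatigued mice above every sedentary control. With PBMT it rose 11.1-fold (log2 fold change 3.47, SE 0.415, edgeR adjusted p = 4.19e-06), again with 6 of 6 fatigued mice above the highest sedentary one. Over the alternatives the adjusted p ran from 2.73e-19 to 2.14e-04 without PBMT and from 1.82e-17 to 3.28e-05 with PBMT. Without fatigued control mouse 6, the highest mouse, the fatigued control mean fell from 127 ± 95.6 to 88.9 ± 23.6 CPM and the log2 fold change from 3.70 to 3.20. Among the 8 genes other than Ccn1, Ankrd1 was the 1 that passed in each comparison. Of the 15108 genes tested, 9.1% passed as higher and 9.49% as lower without PBMT, and 14.1% as higher and 12.7% as lower with PBMT, so 1 of 8 higher and 0 of 8 lower lies near that background. Of the 8, 2 had an unadjusted p under 0.05 without PBMT, where 4861 of 15108 genes did, and 4 with PBMT, where 5674 did, so neither stands out from the background.

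The Ankrd1 log2 fold change with PBMT was 0.48 (SE 0.277) in sedentary muscle, as a description, and 0.24 (SE 0.415, 95% interval -0.68 to 1.17; exact permutation p = 0.366) in fatigued muscle. The sedentary value was 0.76 without sedentary control mouse 4. Without fatigued control mouse 6 the fatigued value was also 0.76, and without fatigued PBMT mouse 3 it was 0.03. With the replicate number as a block it was 0.42. The permutation test was on the difference in mean log2 CPM, which was 0.395 in fatigued muscle.

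Amotl2 encodes an angiomotin-like protein that binds YAP and is also its target (ENSMUSG00000032531, chromosome 9, 102716672 to 102733418, plus strand). Its lowest, median and highest levels were 14.7, 16.9 and 26.0 CPM in sedentary controls and 13.03, 14.7 and 17.8 CPM in sedentary PBMT mice. They were 13.1, 20.3 and 25.2 CPM in fatigued controls and 11.1, 21.5 and 30.3 CPM in fatigued PBMT mice. All 4 groups overlapped, and the fatigued PBMT mice held both the lowest and the highest of the 24 values. In sedentary muscle, where Ccn1 was higher with PBMT, Amotl2 had a log2 fold change of -0.25 (SE 0.119), and the description moved to -0.13 without sedentary control mouse 4.

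In fatigued muscle the Amotl2 value with PBMT was 0.10 (SE 0.238, 95% interval -0.43 to 0.63; exact permutation p = 0.753). Fatigued against sedentary, it was 0.08 (SE 0.196, edgeR adjusted p = 0.806, 0 of 6 fatigued mice above the highest control) without PBMT. With PBMT it was 0.45 (SE 0.196, edgeR adjusted p = 0.0968), with 4 of 6 fatigued mice above the highest sedentary PBMT mouse and 1 of 6 below the lowest. Leaving out fatigued PBMT mouse 2 gave 0.58 with an adjusted p of 0.0161, and its range across the alternatives was 0.0161 to 0.239.

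Lats2 encodes a Hippo kinase that restrains YAP and TAZ and is itself a YAP target (ENSMUSG00000021959, chromosome 14, 57689662 to 57758388, minus strand). Its group means lay between 12.0 ± 1.37 CPM in sedentary PBMT mice and 13.4 ± 1.09 CPM in fatigued controls, a difference about as large as the spread within groups. A protein-coding gene model on the same strand, Gm49361, shares 42.4% of the Lats2 exon bases, and reads from that stretch cannot be assigned to either one. In sedentary muscle the log2 fold change with PBMT was -0.05 (SE 0.107), as a description, and ran from -0.13 (without sedentary control 4) to -0.0093 (without sedentary PBMT 6) with single mice left out. In fatigued muscle it was -0.08 (SE 0.0672, 95% interval -0.23 to 0.07; exact permutation p = 0.210), and -0.041 without fatigued control mouse 2. Fatigued against sedentary it was 0.11 without PBMT (edgeR adjusted p = 0.423, 2 of 6 mice above the highest control) and 0.08 with PBMT (adjusted p = 0.517, 0 of 6 above). The value without PBMT was 0.03 without sedentary control mouse 4, the lowest in Lats2.

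Yap1 (ENSMUSG00000053110, chromosome 9, 7931999 to 8004596, minus strand) had lowest, median and highest levels of 57.6, 66.4 and 68.2 CPM in sedentary controls and 63.7, 71.5 and 77.02 CPM in sedentary PBMT mice. The fatigued controls were at 56.8, 62.0 and 68.1 CPM and the fatigued PBMT mice at 56.8, 63.9 and 69.5 CPM. Sedentary PBMT mice stood somewhat higher than the rest, with 5 of 6 above the highest sedentary control and a log2 fold change of 0.15 (SE 0.0657) that is a description. In fatigued muscle the Yap1 value with PBMT was 0.02 (SE 0.0682, 95% interval -0.13 to 0.17; exact permutation p = 0.784).

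Compared with sedentary PBMT mice, fatigued PBMT mice had a Yap1 log2 fold change of -0.17 (SE 0.0661, edgeR adjusted p = 0.0545), and 3 of 6 lay below the lowest sedentary PBMT mouse. The adjusted p ran from 0.0357 to 0.149 over the alternatives. It was 0.0398 without fatigued PBMT mouse 2, 0.0357 without sedentary control mouse 4, 0.0489 without sedentary control mouse 6 and 0.0406 without sedentary PBMT mouse 4. It was 0.0457 when genes needed at least 10 counts in every mouse. The call for Yap1 thus sits at the threshold. Without PBMT the value was -0.04 (SE 0.0662, edgeR adjusted p = 0.707, 1 of 6 fatigued mice below the lowest control).

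Wwtr1, the gene of TAZ (ENSMUSG00000027803, chromosome 3, 57455649 to 57575910, minus strand), ranged over all mice from 26.7 to 46.2 CPM, and its group means from 33.3 ± 4.86 CPM in fatigued controls to 39.0 ± 4.23 CPM in sedentary PBMT mice. These means are closer together than the mice within a group. The log2 fold change with PBMT was 0.12 (SE 0.0844) in sedentary muscle, as a description, and 0.12 (SE 0.115, 95% interval -0.14 to 0.38; exact permutation p = 0.396) in fatigued muscle. Fatigued against sedentary it was -0.12 without PBMT (edgeR adjusted p = 0.464, 2 of 6 mice below the lowest control) and -0.11 with PBMT (adjusted p = 0.445, 1 of 6 below). With single mice left out, these Wwtr1 values ran from -0.16 to -0.063 (without fatigued control 1) and from -0.17 to -0.037 (without fatigued PBMT 1). The differences of PBMT from control mice ran from 0.066 (without sedentary PBMT 2) to 0.16 in sedentary and from 0.062 (without fatigued PBMT 5) to 0.19 in fatigued muscle.

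Tead1 and Tead4 encode DNA-binding partners of YAP and TAZ, and TEAD factors bind the MCAT elements of muscle genes. Tead1 (ENSMUSG00000055320, chromosome 7, 112679318 to 112906807, plus strand) ranged from 168 to 269 CPM, and Tead4 (ENSMUSG00000030353, chromosome 6, 128224288 to 128300823, minus strand) from 3.90 to 7.52 CPM. The Tead1 log2 fold change with PBMT was 0.16 (SE 0.0979) in sedentary muscle, as a description, and 0.03 (SE 0.122; exact permutation p = 0.903) in fatigued muscle. Without sedentary control mouse 4 the sedentary Tead1 value was 0.097. For Tead4 the sedentary description was 0.20 (SE 0.124), and 0.11 without the 2 mice with high skin markers.

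In fatigued muscle Tead4 had lowest, median and highest levels of 3.90, 5.43 and 6.11 CPM in controls and 4.45, 6.60 and 7.52 CPM in PBMT mice. Although 5 of 6 PBMT mice lay above the highest control, the remaining one kept the groups overlapping. The log2 fold change was 0.28 (SE 0.133, 95% interval -0.02 to 0.57), with an exact permutation p of 0.0887. Its edgeR adjusted p over the alternatives ran from 0.865 to 1.00, so Tead4 did not pass. Fatigued against sedentary, Tead1 had -0.02 without PBMT (edgeR adjusted p = 0.923, 1 of 6 mice below the lowest control) and -0.14 with PBMT (adjusted p = 0.374, 2 of 6 below). The value with PBMT was -0.075 without fatigued PBMT mouse 1 and -0.077 without mouse 5. Tead4 had -0.06 without PBMT (edgeR adjusted p = 0.782, 1 of 6 below) and 0.02 with PBMT (adjusted p = 0.909, 2 of 6 above).

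Per kilobase of exon, which allows genes to be set against each other, Tead1 in sedentary controls was at 16.3 CPM per kb, Ccn1 at 10.2, Wwtr1 at 7.54, Yap1 at 6.97 and Ccn2 at 6.54. Ankrd1 was at 3.39 CPM per kb, Amotl2 at 2.90, Lats2 at 1.78 and Tead4 at 1.53. In fatigued controls Ankrd1 stood first at 44.0 CPM per kb. Ccn1 at 16.4 and Tead1 at 16.1 lay close together there, and their order rests on mouse 6, without which the Ccn1 mean fell from 33.1 to 26.5 CPM and that of Tead1 from 218 to 215 CPM. In sedentary PBMT muscle Ccn1, at 22.3 CPM per kb, stood above Tead1 at 18.1.

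A wider list of 22 YAP-TEAD targets held Ccn1, Ccn2, Ankrd1, Amotl2, Lats2 and 17 further genes, and Foxf2 among these was too low to test. In sedentary muscle 20 targets other than Ccn1 were tested for PBMT. With edgeR 0 of the 20 passed, 1 had an unadjusted p under 0.05, beside 1082 of 14177 genes, and DESeq2 called 0. Of these, 7 had a positive and 13 a negative log2 fold change, where 7027 of 14177 genes had a positive one, with a median of -0.06 beside -0.00 over all genes.

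In fatigued muscle 21 targets were tested for PBMT. With edgeR 0 passed, 2 had an unadjusted p under 0.05, and DESeq2 called 0. Over all genes 230 of 14574 were under 0.05. The log2 fold change was positive for 17 and negative for 4, where 7578 of 14574 genes had a positive one, with a median of 0.10 beside 0.00 over all genes. The pair under 0.05 was Dock5, a guanine nucleotide exchange factor (0.66, SE 0.247), and Nuak2, a kinase related to AMPK (0.53, SE 0.241). Both are low, with fatigued control means of 0.677 and 0.748 CPM.

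Among the 20 targets other than Ccn1, 4 passed with edgeR as higher and 0 as lower in fatigued than in sedentary mice without PBMT, and 6 as higher and 0 as lower with PBMT. DESeq2 called 5 and 7. The higher counts lie above the 9.1% and 14.1% over all genes. At an unadjusted p under 0.05 there were 7 and 11 of 20, beside 4861 and 5674 of 15108 genes, so the first is about the background. The list was not tested as a list. Their median log2 fold change was 0.10 without PBMT (all genes -0.01) and 0.49 with PBMT (all genes 0.00). Besides Ankrd1, those that passed in both comparisons were Asap1, an Arf GTPase-activating protein, Axl, a receptor tyrosine kinase, and Ccdc80, a matrix protein.

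Asap1 had lowest, median and highest levels of 10.7, 11.5 and 15.9 CPM in sedentary controls and 16.2, 20.2 and 24.05 CPM in fatigued controls. No fatigued control reached down to a sedentary control, and the same was seen with PBMT, where Asap1 ran from 11.0 to 14.0 CPM in sedentary and from 16.4 to 21.5 CPM in fatigued mice. The log2 fold change was 0.71 (SE 0.104, edgeR adjusted p = 3.46e-05, 6 of 6) without PBMT and 0.66 (SE 0.104, adjusted p = 4.24e-05, 6 of 6) with PBMT. For Axl it was 0.75 (SE 0.1502, edgeR adjusted p = 0.00114, 6 of 6) without PBMT and 1.00 (SE 0.151, adjusted p = 2.98e-05, 6 of 6) with PBMT. Axl means were 21.3 CPM in sedentary controls, 18.2 in sedentary PBMT mice, 35.8 in fatigued controls and 36.4 in fatigued PBMT mice.

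Ccdc80 had 0.74 (SE 0.248, edgeR adjusted p = 0.0405, 5 of 6 above the highest control) without PBMT and 0.99 (SE 0.248, adjusted p = 0.00517, 6 of 6) with PBMT. The call without PBMT was lost with no filter on low counts (adjusted p = 0.0889), with a replicate block (0.0753) and without sedentary control mouse 4 and fatigued control mouse 6 together (0.122). It was also lost without fatigued control 1 (0.0946), 5 (0.0710) or 6 (0.0967), and without sedentary control 3 (0.0525), 4 (0.0577), 5 (0.0929) or 6 (0.0772). Its adjusted p over the alternatives ran from 0.00516 to 0.122. With PBMT the Ccdc80 value was 0.64 without fatigued PBMT mouse 5, and the gene still passed, over a range of 2.36e-04 to 0.0187. With PBMT, Nuak2 (0.97, SE 0.287, edgeR adjusted p = 0.0133, 5 of 6) and Myof, a ferlin of membrane repair (0.66, SE 0.206, adjusted p = 0.0187, 5 of 6), also passed. Myof fell to 0.35 with an adjusted p of 0.0977 without fatigued PBMT mouse 5, its highest at 14.2 CPM, and its adjusted p over the alternatives ran from 0.00483 to 0.0977. That mouse also had the highest summed interstitial mesenchymal (2126 CPM), tendon (818 CPM) and macrophage markers (64.2 CPM) of its group. The part of these cells in the Ccdc80 and Myof values was not tested.

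**Figure D2:**
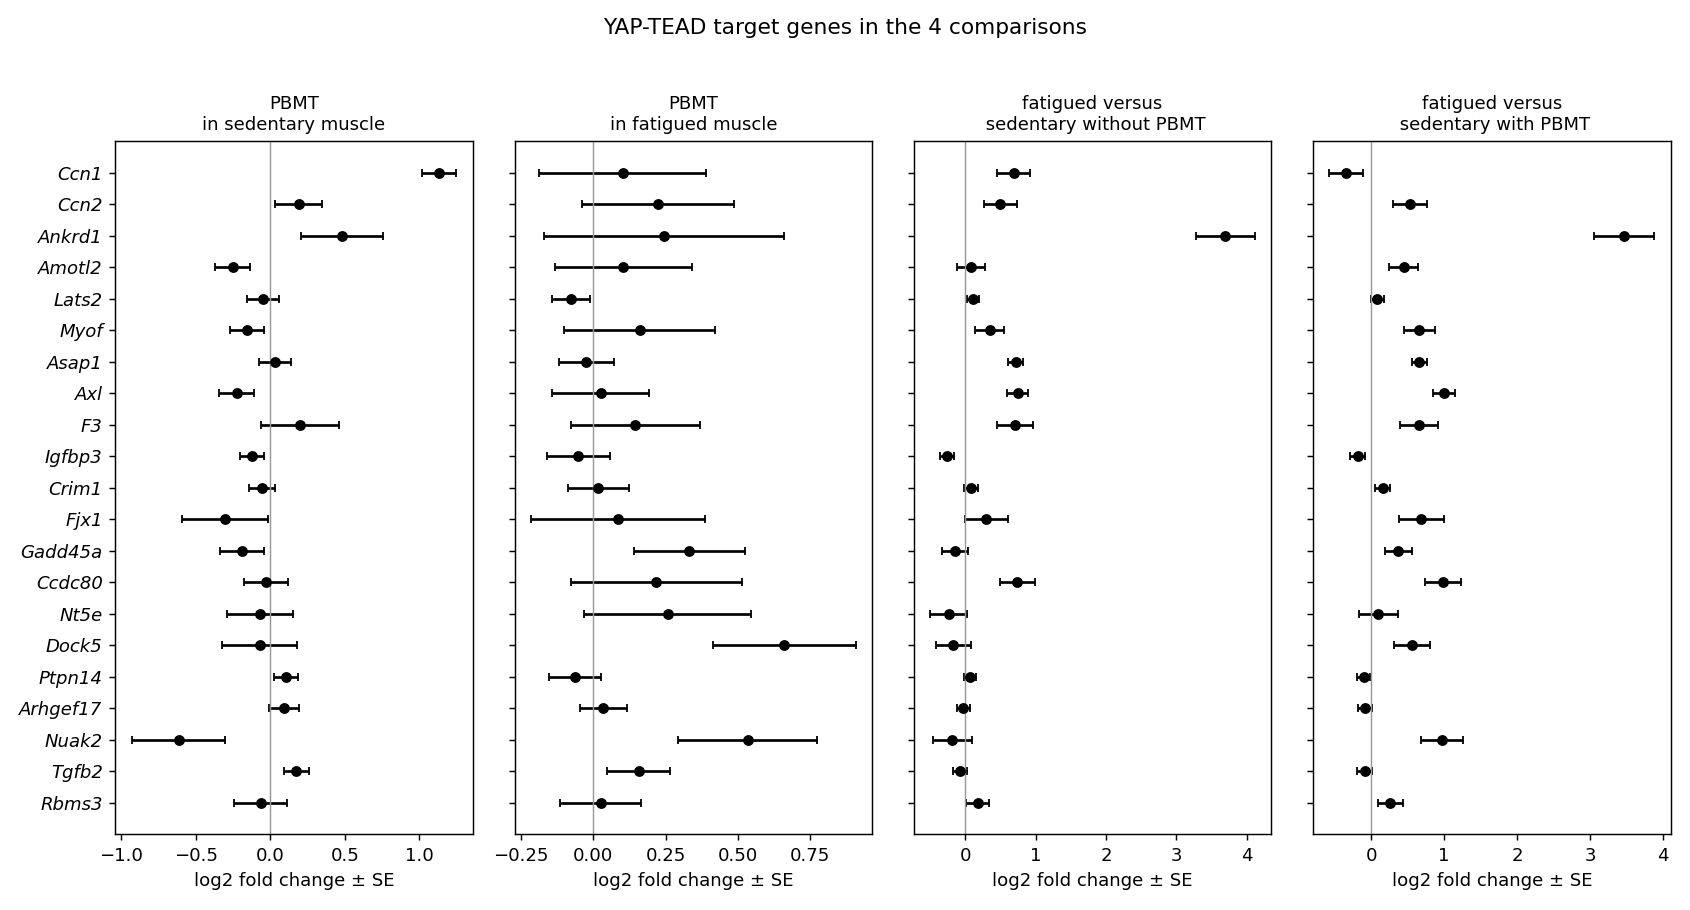
Log2 fold change (horizontal axis, different range in each panel) ± SE of 21 YAP-TEAD targets in the 4 comparisons of 6 mice with 6. Ccn1 stands alone to the right for PBMT in sedentary muscle at 1.14, and Ankrd1 does so in both comparisons of fatigued with sedentary mice, at 3.70 and 3.47.

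Markers of some cell types moved with the exercise groups, and their counts stand beside 9.1% of all genes higher without PBMT and 14.1% with PBMT. Of the slow myofiber, Schwann cell, adipocyte and erythrocyte markers 0 passed in either comparison. The 5 interstitial mesenchymal markers, none at 0 in any mouse and with Dcn or Col1a1 as the most abundant, summed to 444, 521 and 638 CPM (lowest, median and highest) in sedentary controls and 374, 424 and 672 CPM in sedentary PBMT mice. Their sums were 496, 828 and 1084 CPM in fatigued controls and 547, 765 and 2126 CPM in fatigued PBMT mice. Without PBMT, 2 of the 5 had an unadjusted p under 0.05 that did not pass the adjustment, and with PBMT 4 of 5 passed as higher. Ccn2, Axl and Ccdc80 are known to be expressed in such cells.

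The 5 tendon markers, none at 0 and with Fmod or Thbs4 most abundant, had median sums of 153 CPM in sedentary controls, 160 in sedentary PBMT mice, 317 in fatigued controls and 290 in fatigued PBMT mice. Of these, 1 passed as higher without PBMT and 2 with PBMT. The 4 macrophage markers, none at 0 and mostly led by Csf1r, had medians of 20.1, 13.1, 30.7 and 26.6 CPM in the same order, and with PBMT 4 of 4 passed as higher. The 5 fast myofiber markers, none at 0 and led by Myh4 or Acta1, summed to means of 81775, 86686, 114096 and 112931 CPM. Of these, 3 passed as higher in fatigued mice without PBMT and 2 with PBMT. The 4 slow myofiber markers, none at 0 and led mostly by Myl2 or Myh7, had medians of 8.23, 9.95, 12.0 and 6.95 CPM. Fatigued control mouse 6, the highest in Ccn1 and Ankrd1, had a slow myofiber sum of 57.1 CPM where the other fatigued controls had 1.53 to 18.4 CPM. Fatigued PBMT mice 1 and 5 had 60.7 and 70.8 CPM. Mouse 6 also had the highest sum of the 3 adipocyte markers (led by Adipoq, none at 0) at 22.3 CPM, followed by fatigued PBMT mouse 5 at 20.5 and fatigued control mouse 1 at 18.9 CPM. Of the 5 endothelial markers, 1 passed as higher in each comparison of fatigued with sedentary mice. With PBMT, 1 of the 3 satellite cell markers passed as lower, beside 12.7% of all genes. The 1 keratinocyte marker tested also passed as lower with PBMT, at -1.52. The part of these markers in the results was not tested.

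In the PBMT comparison of sedentary mice, the log2 fold change was negative for 4 of 4 macrophage markers (median -0.62, 2 with an unadjusted p under 0.05) and for 5 of 5 interstitial mesenchymal markers (median -0.18). The macrophage sum had lowest, median and highest values of 15.6, 20.1 and 35.7 CPM in controls and 9.66, 13.1 and 20.4 CPM in PBMT mice, and the part of these markers in the Ccn1 difference was not tested. Skin markers differed in a few animals. The 4 keratinocyte markers, led by Krt10 in 23 of 24 mice and with at least 1 marker at 0 in 20 of 24, summed to 1.66, 2.40 and 5.27 CPM in sedentary controls and 1.61, 2.51 and 25.5 CPM in sedentary PBMT mice. Sedentary PBMT mice 2 (9.15 CPM) and 4 (25.5 CPM) lay above every sedentary control. Without both, the Ccn1 log2 fold change was again 1.14.

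The Hippo list held 34 kinases, scaffolds and transcription partners, of which 33 were tested and Wwc1 was too low. For PBMT in sedentary muscle, given as a description, 5 of the 27 tested genes that are not among the 9 members had an unadjusted p under 0.05 beside 1082 of 14177 genes, and 18 of 27 were positive beside 7027 of 14177. For PBMT in fatigued muscle edgeR called 0 of 33, 1 had an unadjusted p under 0.05 beside 230 of 14574 genes (Ajuba, a LIM scaffold of LATS kinases, at -0.35), and DESeq2 called 0. Fatigued compared with sedentary mice gave 5 higher and 3 lower without PBMT, and 3 higher and 4 lower with PBMT. DESeq2 called 9 and 7 in all. The 5 of 33 lies somewhat above the 9.1% of all genes, and the other counts lie near or below their shares. Without PBMT the 8 calls became 5 without sedentary control mouse 5, and with PBMT the 7 became 12 without fatigued PBMT mouse 2 and 11 without sedentary control mouse 4.

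The lower calls of this list, 3 of 33 and 4 of 33, lie at the 9.49% and 12.7% of all genes. Lats1, the other LATS kinase, fell by 0.19 (SE 0.0601, edgeR adjusted p = 0.0297, 1 of 6 below the lowest control) without PBMT and by 0.35 (SE 0.0600, adjusted p = 1.21e-04, 6 of 6) with PBMT. Sav1, the scaffold that joins the upstream kinases to LATS, fell by 0.33 (SE 0.0928, edgeR adjusted p = 0.0159, 4 of 6) and 0.40 (SE 0.0927, adjusted p = 0.00218, 5 of 6). Mob1b, a LATS activator, had -0.38 (SE 0.114, edgeR adjusted p = 0.0214, 0 of 6) and -0.66 (SE 0.115, adjusted p = 1.37e-04, 6 of 6). Amot, a YAP-binding angiomotin, passed with PBMT at -0.41 (SE 0.104, edgeR adjusted p = 0.00504, 6 of 6). The Lats1 call without PBMT was lost with no filter (adjusted p = 0.166), with a fit on the 12 mice compared (0.0964) and without fatigued control 1 (0.0586) or 3 (0.0881), sedentary control 1 (0.0585), 2 (0.0613) or 6 (0.0831), or sedentary PBMT mouse 1 (0.0511). Its range was 0.0134 to 0.166. The Mob1b call without PBMT was lost without fatigued control 1 (0.0572) or 6 (0.0602) or sedentary control 3 (0.0651), over a range of 4.65e-04 to 0.0651.

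Genes of the list that rose in both comparisons were Tead2, Frmd6 and Map4k4. Tead2, a TEAD of developing tissue, had 0.55 (SE 0.152, edgeR adjusted p = 0.0140, 6 of 6) without and 0.63 (SE 0.153, adjusted p = 0.00345, 6 of 6) with PBMT. Frmd6, an upstream scaffold, had 0.44 (SE 0.137, edgeR adjusted p = 0.0248, 5 of 6) and 0.63 (SE 0.137, adjusted p = 0.00131, 5 of 6). Map4k4, a kinase that can act on LATS, had 0.38 (SE 0.10, edgeR adjusted p = 0.00967, 5 of 6) and 0.52 (SE 0.10, adjusted p = 4.32e-04, 6 of 6). Vgll2, a TEAD cofactor of muscle, and Ajuba passed without PBMT, at 0.50 (SE 0.151, edgeR adjusted p = 0.0228, 0 of 6 above) and 0.54 (SE 0.171, adjusted p = 0.0267, 3 of 6). The Vgll2 call was lost without sedentary control 2 (adjusted p = 0.0511), 5 (0.0626) or 6 (0.0511), over a range of 3.37e-04 to 0.0626. Frmd6 lost its call without PBMT when fatigued control 6 (0.0790) or sedentary control 5 (0.0631) was left out, or fatigued control 6 with sedentary control 4 (0.0845), over a range of 0.00421 to 0.0845. Ajuba lost its call without fatigued control 2 (0.0504), 4 (0.0509) or 5 (0.0616) or sedentary control 1 (0.0614), 5 (0.0689) or 6 (0.0549), over a range of 0.00462 to 0.0689.

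Among other CCN family genes, Ccn3 had means of 2.45 CPM in sedentary controls, 2.22 in sedentary PBMT mice, 3.95 in fatigued controls and 4.14 in fatigued PBMT mice. Its log2 fold change was 0.69 (SE 0.263, edgeR adjusted p = 0.0687, 2 of 6) without PBMT and 0.90 (SE 0.264, adjusted p = 0.0129, 4 of 6) with PBMT. Ccn4 and Ccn5 had adjusted p values of 0.191 and 0.350 without PBMT and 0.882 and 0.369 with PBMT, at log2 fold changes of 1.19, 0.64, 0.15 and 0.58, with 2, 3, 0 and 1 of 6 fatigued mice above. Ccn6 was too low to test.

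Receptors that bind CCN1, a list of 9 integrin, syndecan and LRP genes, had 4 that passed as higher without PBMT and 5 with PBMT, beside 9.1% and 14.1% of all genes. Sdc4, a syndecan, showed 1.00 (SE 0.162, edgeR adjusted p = 1.44e-04, 6 of 6) and 1.63 (SE 0.165, adjusted p = 1.69e-07, 6 of 6). Lrp1 showed 0.84 (SE 0.167, edgeR adjusted p = 0.00104, 6 of 6) and 1.21 (SE 0.168, adjusted p = 1.22e-05, 6 of 6). Itgb1, the most common integrin beta chain, moved less, by 0.27 and 0.28, and Itgb3 by 1.00 and 1.21, and all passed in both comparisons. Itgam, a leukocyte integrin, passed with PBMT at 1.85, in the comparison where the macrophage markers also passed.

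The 12 genes of the MRTF-SRF list, another route from actin to the nucleus that shares targets with YAP, had 3 higher and 1 lower in each comparison. Beside 9.1% higher and 9.49% lower of all genes without PBMT and 14.1% and 12.7% with PBMT, 1 of 12 lower lies near that background. Flna rose by 0.83 and 0.88, Vcl by 0.45 and 0.35, Acta2 by 0.44 and 0.46, and Mrtfa fell by 0.48 and 0.60. Acta2 is also 1 of the 5 smooth muscle and pericyte markers, of which 2 passed as higher in each comparison. Their sums, with none at 0 and Rgs5 as the most abundant, had medians of 627 CPM in sedentary controls, 597 in sedentary PBMT mice, 658 in fatigued controls and 615 in fatigued PBMT mice, and their part in the result was not tested. Of the 16 immediate early genes, 6 were higher and 1 lower without PBMT, and 7 higher and 2 lower with PBMT. The higher counts lie above the 9.1% and 14.1% of all genes, and the lower ones near or below their 9.49% and 12.7%. Atf3 had the largest changes of that list, 4.28 (SE 0.399, edgeR adjusted p = 5.50e-07, 6 of 6) and 5.00 (SE 0.414, adjusted p = 3.95e-08, 6 of 6). Egr1 passed without PBMT at 2.93 (SE 0.582, edgeR adjusted p = 0.00141, 6 of 6), and Fos at 2.12 (SE 0.674, adjusted p = 0.0331, 5 of 6). With PBMT neither passed, with Egr1 at 0.67 (SE 0.514, edgeR adjusted p = 0.356, 1 of 6) and Fos at 0.59 (SE 0.630, adjusted p = 0.521, 1 of 6). Egr1 and Fos were also higher with PBMT in the sedentary mice, as described next, and those mice are the reference here. These patterns share mice and are not separate results.

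For PBMT in sedentary muscle, the comparison that chose Ccn1, the immediate early genes are described without a test. The lowest, median and highest Egr1 levels were 1.69, 2.03 and 3.25 CPM in sedentary controls and 6.01, 16.0 and 33.9 CPM in sedentary PBMT mice. Like Ccn1, Egr1, a zinc finger transcription factor, was higher in each of the 6 PBMT mice than in any control, with a log2 fold change of 2.98 (SE 0.383). Fos, an AP-1 subunit, had 2.00 (SE 0.548) with 4 of 6 above the highest control, and Nr4a1, a nuclear receptor, had -0.85 (SE 0.173) with 6 of 6 below the lowest.

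From mouse to mouse, likeness to Ccn1 was measured as the correlation of deviations in log2 CPM from the group mean, over 24 mice with group differences removed. This did not use the group difference that chose Ccn1. Over the 15107 other genes, p came from 100000 permutations of mice within groups (smallest possible p 1e-05). Of these genes 0 (0%) passed the adjustment at 0.05, and 796 had an unadjusted p under 0.05. With that smallest p and 15107 genes, a single gene alone could not pass the adjustment. The 0 therefore does not decide whether a single gene followed Ccn1. DESeq2 has no such test.

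Ankrd1 had the strongest likeness of the 8 other members by Pearson r over 24 mice, at 0.622 (permutation p = 0.0103, adjusted p = 0.862). Its Spearman coefficient was 0.416 (permutation p = 0.0605), smaller in size than the -0.440 of Lats2. Without the 2 mice farthest from the median of Ccn1, fatigued controls 6 and 4, r was 0.476, beside 0.490 for Ccn2 and -0.484 for Lats2. Without mouse 6 alone it was 0.364, beside 0.583 for Ccn2. With the replicate number as a block it was 0.507, beside 0.549 for Ccn2, so the rank depends on mouse 6 and on the block. Within groups, r of Ankrd1 was 0.777 in fatigued controls, 0.848 in fatigued PBMT mice, 0.638 in sedentary controls and -0.0561 in sedentary PBMT mice. The value nearest 0 was thus that of sedentary PBMT mice, the group with the highest Ccn1 level.

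Ccn2 had r = 0.345 (permutation p = 0.183, adjusted p = 0.959) and a Spearman coefficient of 0.349 (permutation p = 0.143), with 0.490 without the 2 farthest mice. Single mice moved that r to 0.197 (without fatigued PBMT 3), 0.204 (without fatigued control 4) or 0.583 (without fatigued control 6), and with the replicate number as a block it was 0.549. Amotl2 had r = 0.208 (permutation p = 0.450, adjusted p = 0.978) and a Spearman coefficient of 0.186, and r was 0.0522 without fatigued PBMT 2, 0.0806 without fatigued control 4 and 0.346 without fatigued control 6. Lats2 had a negative r of -0.426 (permutation p = 0.00909, adjusted p = 0.862) and a Spearman coefficient of -0.440 (permutation p = 0.0401), with -0.484 without the 2 farthest mice. Yap1 had -0.276 and Wwtr1 -0.285, while Tead1 had 0.130 and Tead4 0.177, and none of these passed. The Yap1 value was -0.0856 without fatigued control mouse 6 and -0.000690 without the 2 farthest mice, so it rests on them. For Tead1, r was 0.262 without fatigued control 4, 0.0407 without fatigued control 6, 0.0533 without fatigued PBMT 3 0.0506 without fatigued PBMT 5 and 0.00089 with the block, and for Tead4 it was 0.0733 without fatigued control 2.

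Over the 20 targets tested, 16 had a positive r, with a median of 0.136, beside 7648 of 15107 genes and a median of 0.00333. With an unadjusted p under 0.05 there were 3, Ankrd1, Gadd45a (a stress response gene, r = 0.460) and Lats2. Without the 2 farthest mice r turned negative for several targets, such as Axl (0.158 to -0.272), Igfbp3 (0.0571 to -0.260) and Ccdc80 (0.188 to -0.189). Others stayed positive, such as Gadd45a at 0.557, so the count of 16 rests on those 2 mice. Immediate early genes had a positive r in 16 of 16, with a median of 0.422 and 7 with unadjusted p under 0.05. Some marker lists also leaned to 1 side. The r was positive for 4 of 4 slow myofiber (median 0.402), 3 of 3 Schwann cell (0.402), 3 of 3 adipocyte (0.389) and 5 of 5 tendon markers (0.208), and for 0 of 5 endothelial (-0.192) and 0 of 3 erythrocyte markers (-0.150). Lists near 0 were those of interstitial mesenchymal cells (0.0166) and macrophages (-0.00995). Among single markers, r was -0.484 for endothelial Cdh5 (permutation p = 0.0315, adjusted p = 0.906) and -0.474 for pericyte Rgs5 (permutation p = 6.10e-04, adjusted p = 0.862). The remaining smooth muscle and pericyte markers had 0.279 (Myh11), 0.111 (Acta2), -0.0751 (Pdgfrb) and -0.137 (Notch3). The fast myofiber genes Myh4 and Ckm had 0.480 and 0.452 (permutation p = 0.00215 and 0.00307, adjusted p = 0.862 for both). The remaining fast myofiber markers had 0.160 (Acta1), -0.224 (Myh2) and -0.253 (Myh1). No marker passed, and the part of these cells in the likeness was not tested. Among the immediate early genes, Fos had r = 0.634 (permutation p = 0.00157, adjusted p = 0.862) and a Spearman coefficient of 0.605 (permutation p = 0.00406), and r within groups was 0.997 in sedentary PBMT mice, 0.389 in sedentary controls, 0.639 in fatigued controls and 0.703 in fatigued PBMT mice. For the Hippo list 13 of 33 were positive, with a median of -0.0169.

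The 10 genes most like Ccn1 were Hspb1, Cep85, Hsp90aa1, Gm15446, Klhl40, Nsun5, Csrnp1, Gm40477, Fos and Ier5, with r from 0.735 down to 0.631 and adjusted p from 0.862 to 0.922. Hspb1 had r = 0.735 (permutation p = 3.70e-04, adjusted p = 0.862) and a Spearman coefficient of 0.586, and r = 0.700 without the 2 farthest mice. Hsp90aa1 dropped from r = 0.654 to 0.171 without those mice, so that value rests on them. None of the YAP-TEAD targets is among the 10, though Ankrd1, at r = 0.622, lies just below the last of them, Ier5 at 0.631.

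**Figure D3:**
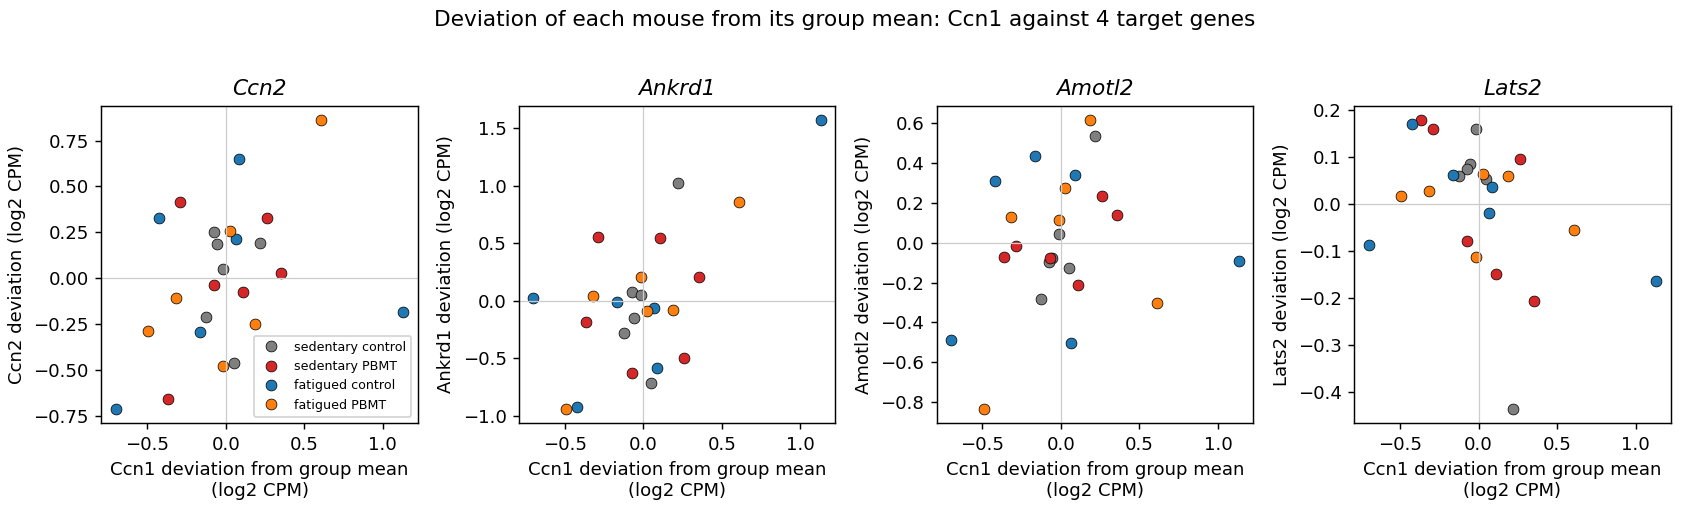
Deviation of Ccn1 from its group mean in log2 CPM (horizontal axis) against that of Ccn2, Ankrd1, Amotl2 and Lats2 (vertical axes) in 24 mice colored by group. Ankrd1 rises with Ccn1 (r = 0.622), with fatigued control mouse 6 at the far right, and Lats2 falls (r = -0.426).

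RefSeq promoters (GRCm38.p6) were found for 6 of the 9 genes, and none was listed for Ccn2, Tead1 and Tead4. The TEAD recognition core CATTCC, which reads GGAATG on the other strand, was searched on both strands of the 250 bases before each RefSeq start. For Ankrd1 all 250 bases and for Amotl2 136 of them lie in exons that GENCODE annotates for the same gene, so these windows are upstream only of the RefSeq start. It was found in 5 of the 6 genes, Ccn1, Ankrd1, Amotl2, Yap1 and Wwtr1, and not in Lats2, while 12.6% of the 32851 promoters of that length hold it. In Ccn1 the match starts 103 bases before the start, in Amotl2 65 bases, and in Ankrd1 there are 2 matches, at 210 and 123 bases. TGANTCA (AP-1) is in 6.75% of promoters, TGACGTCA (CRE) in 1.55% and the CArG box of SRF in 1.47%, and these were in none of the 6 genes' windows. The match is a description and does not show binding.

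The Ccn1 upstream region is printed as the promoter of the gene the results turn on, chr3:145649986-145650235 on the minus strand of GRCm38.p6. For Ankrd1 (chr19:36120037-36120066 and chr19:36119950-36119979, minus strand) and Amotl2 (chr9:102717727-102717756, plus strand) the bases around the match are printed, so that the motifs of the targets can be compared. Capitals mark the TEAD core, and each is written 5′ to 3′ on the strand of the gene.
Ccn1: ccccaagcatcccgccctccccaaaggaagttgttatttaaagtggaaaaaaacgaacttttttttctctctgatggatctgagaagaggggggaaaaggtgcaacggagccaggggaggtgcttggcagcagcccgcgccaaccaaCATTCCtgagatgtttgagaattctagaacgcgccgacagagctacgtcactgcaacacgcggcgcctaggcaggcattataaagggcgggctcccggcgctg
Ankrd1 at 210: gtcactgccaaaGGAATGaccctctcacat
Ankrd1 at 123: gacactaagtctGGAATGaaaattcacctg
Amotl2: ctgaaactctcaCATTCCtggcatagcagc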

How the data were processed

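RNA from the TA muscle of 24 mice, 6 in each of 4 groups, was used as the whole-number counts per gene and mouse that the authors deposited, with no normalization. The submitters' processing notes name Trimmomatic, STAR 2.7.1a, Picard 2.20.4, StringTie 2.0.4, featureCounts 1.6.0 and HTSeq and the build GRCm38, with no role given. The strand setting, the annotation release and whether counts are reads or read pairs are not given in the sources used here. Of 55487 identifiers, 55227 matched GENCODE M21, from which symbols, positions and exon lengths came, and promoters came from RefSeq (GRCm38.p6).

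In R 4.3.3 with edgeR 4.0.16, counts were TMM-normalized, filtered with filterByExpr (minimum count 10), fitted by robust quasi-likelihood and called at a Benjamini-Hochberg adjusted p under 0.05. PBMT was tested within each project on 12 mice, and fatigued against sedentary in a fit to 24 mice. Log2 CPM used a prior count of 2, and CPM in the text come from the TMM factors of all 24 mice. Single values in fatigued mice were also tested by exact permutation (924 arrangements, two-sided, smallest p 0.00216). That test is on the difference in mean log2 CPM, which can differ from the edgeR log2 fold change. Likeness used Python 3.11.15 and numpy 2.4.6. Alternatives were other filters, the size factors and test of DESeq2 1.42.0, a replicate block, a fit on 12 mice, a prior count of 0.5, fewer than 100000 permutations in the alternatives, and leaving out mice.

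Libraries were checked for duplicates: the lowest chi-square per degree of freedom between any pair was 12.6 within groups (60 pairs) and 10.9 across groups (216 pairs). The tests were tested on simulated data. Genes named are the 9, genes of the pathway and marker lists, and the 10 with the highest r to Ccn1 among genes with a mean of at least 1 CPM; overlapping gene models were named after their positions were seen. The members and lists were chosen with earlier results of these data known.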

Additional observations from a re-analysis of the deposited data

Results flagged for a closer look

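A single mouse stood far from the other 5 of its group, by Dixon's ratio of gap to range, in 5 of the 36 combinations of gene and group tested over the 9 genes. Chance flags about 1 in 20 groups when values are independent and normal. Here the ratio was taken on CPM, the 36 combinations share the same mice, and all flags fell on fatigued control mouse 6 and sedentary control mouse 4. The count is therefore not set against that rate. Ccn1 was 66.4 CPM in fatigued control mouse 6, where the next highest was 32.2 CPM. Ankrd1 in that same mouse was 317 CPM, with the next highest at 108 CPM. The summed slow myofiber markers of this mouse were 57.1 CPM, where the other fatigued controls reached 18.4 CPM. In sedentary control mouse 4 Ankrd1 was 18.6 CPM, above the other controls (next 9.58 CPM), and Amotl2 was 26.0 CPM (next 18.5 CPM). Lats2 in that mouse was the lowest of its group at 9.09 CPM, where the next lowest was 12.8 CPM. Its summed fast myofiber markers were 107976 CPM, where the next highest sedentary control, mouse 6, had 82852.5 CPM. Without sedentary control mouse 4, the group means were 8.04 ± 1.66 CPM for Ankrd1, 16.7 ± 1.35 CPM for Amotl2 and 13.1 ± 0.397 CPM for Lats2.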

How the results depend on the processing

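Every count of called targets stayed within 1.5 times its value under the other filters, DESeq2 size factors and test and the replicate block. The same held under the fit on 12 mice, which applies only to fatigued against sedentary mice. The likeness test is not part of that statement, since DESeq2 has no such test. Apart from the removal of single mice, and with the alternatives added later included, 381 values for single genes kept their side of the threshold or, where untested, moved within the spread between mice, and 6 lost and 1 gained a call. Fatigued against sedentary, leaving out single mice ended calls of Ccdc80, Lats1, Ajuba, Vgll2, Mob1b, Frmd6 and Myof. It gave calls to the members Yap1 and Amotl2 and to the targets F3, Igfbp3 and Dock5. Hippo genes that gained a call were Amotl1, Wwc2, Rassf1, Taok1, Taok3, Limd1, Vgll4 and, with PBMT, Vgll2. The sign changed for Yap1 in fatigued against sedentary mice without PBMT, 0.0099 without the pair of mice that stood apart, and for Ccn2 with PBMT in sedentary muscle, -0.0096 without mice high in keratinocyte markers. Both of these alternatives were chosen after seeing the data. With the replicate number as a block, 0 targets were called for PBMT in sedentary and in fatigued muscle, and 3 without and 6 with PBMT for fatigued against sedentary mice. For PBMT in fatigued muscle the block gave 0.18 for Ccn1 and 0.42 for Ankrd1. There, mice of the same number had correlated deviations over 0.1 in 4 of 6 pairs (highest 0.325), and 3 of 6 matched best with their own number, whereas the other 3 comparisons had 0 of 6 over 0.1. Whether the numbers follow treadmill sessions is not given in the sources used here. The cause was not tested.

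With single mice left out, called targets ranged from 0 to 0 for PBMT in sedentary and in fatigued muscle, from 3 to 6 for fatigued against sedentary mice without PBMT and from 5 to 8 with PBMT. Called Hippo genes ranged from 5 (without sedentary control mouse 5) to 10 without PBMT. With PBMT they ranged from 7 to 12 (without fatigued PBMT mouse 2), with 11 without sedentary control mouse 4. Likeness calls ranged from 0 to 0, but with the fewer permutations used there a single gene alone could not pass the adjustment. That range therefore does not show that the likeness result is stable. For PBMT in fatigued muscle log2 fold changes ranged from -0.043 to 0.42 for Ccn1, -0.0022 to 0.38 for Ccn2, -0.039 to 0.23 for Amotl2, -0.011 to 0.047 for Yap1 and -0.023 to 0.099 for Tead1, so these signs rest on single mice. Fatigued against sedentary without PBMT, they ranged from -0.0065 to 0.21 for Amotl2, -0.078 to 0.031 for Tead1 and -0.11 to 0.012 for Tead4, and with PBMT from -0.039 to 0.11 for Tead4. Over all genes, PBMT in sedentary muscle gave 8 higher and 8 lower with no filter and 22 higher and 38 lower with DESeq2, beside 3 and 1. With the replicate block it gave 7 and 4. Single mice moved it to 6 and 12 (without sedentary control 4), 7 and 13 (without sedentary PBMT 5) or 1 and 1 (without sedentary control 1). Depth limits genes with few counts, such as Dock5 (22 to 93 counts per mouse) and Nuak2 (12 to 89).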
